A study of Mus musculus with 35 samples.

Results

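The genes described here are 40 enzymes and carriers of fatty acid oxidation in mitochondria and peroxisomes, with a small set of enzymes of branched-chain amino acid oxidation. The list was given, and each gene was read from the brightest probe set that the platform annotation ties to that symbol alone. This gave 36 of the 40 genes, out of 17097 genes measured in the same way. Acad10, Hadha, Etfb and Ivd had no such probe set and were not analysed here. Expression was measured in whole lung of adult male CD-1 mice, an outbred stock, on Affymetrix arrays, with 1 array per mouse. The 7 groups of 5 mice breathed air or styrene, a volatile aromatic solvent, at 1, 5, 10, 20, 40 or 120 ppm. The labels name no engineered allele and no other treatment. The labels disagree on its length: the protocol and design text give a single exposure of 6 hours and the sample titles 1 day, whereas the sample characteristics give 5 days. Mice were killed on the morning after the last exposure. Values are log2 intensities, so a difference of 1 is a doubling.

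Fatty acid oxidation shortens an acyl-CoA chain by repeated rounds of dehydrogenation, hydration, a further dehydrogenation and thiolytic cleavage, each round releasing acetyl-CoA. Long chains enter mitochondria as carnitine esters, and the first dehydrogenation passes its electrons through electron transfer flavoprotein to ubiquinone. Peroxisomes shorten very long and branched chains with a separate enzyme set, and in lung the alveolar type 2 cell and the macrophage handle much of the lipid of surfactant.

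The promoters of 5 members are shown because these genes had the 3 highest and the 2 lowest changes at 5 ppm, the first concentration at which most members were called. Each is the 250 bases before the start given with the RefSeq promoter windows on mouse build GRCm38.p6, read 5′ to 3′ along the gene's strand. For 2 of them this start lies inside the gene span used further below. The span of Acaa1a begins at base 119341028, before its whole window, and that of Hsdl2 at 59581517, within its window. Capitals mark the palindromic site of the nuclear respiratory factor NRF1, searched as GCGCA, any base, then GCGC, on both strands.
Etfdh (chr3:79628768-79629017, minus strand): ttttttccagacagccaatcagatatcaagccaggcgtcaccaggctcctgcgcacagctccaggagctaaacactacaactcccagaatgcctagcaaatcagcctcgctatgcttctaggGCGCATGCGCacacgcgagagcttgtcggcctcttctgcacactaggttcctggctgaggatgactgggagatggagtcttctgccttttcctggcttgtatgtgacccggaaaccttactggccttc
Hsdl2 (chr4:59581313-59581562, plus strand): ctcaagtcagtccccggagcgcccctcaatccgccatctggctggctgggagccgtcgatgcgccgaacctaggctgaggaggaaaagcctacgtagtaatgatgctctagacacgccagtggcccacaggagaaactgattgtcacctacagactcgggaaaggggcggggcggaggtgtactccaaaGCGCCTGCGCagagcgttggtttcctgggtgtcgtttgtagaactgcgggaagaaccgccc
Acadm (chr3:153944644-153944893, minus strand): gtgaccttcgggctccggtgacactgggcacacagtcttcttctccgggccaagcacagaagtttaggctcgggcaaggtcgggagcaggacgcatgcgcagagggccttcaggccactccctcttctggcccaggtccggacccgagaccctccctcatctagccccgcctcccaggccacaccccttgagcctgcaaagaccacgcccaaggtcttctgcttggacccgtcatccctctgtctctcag
Acads (chr5:115119347-115119596, minus strand): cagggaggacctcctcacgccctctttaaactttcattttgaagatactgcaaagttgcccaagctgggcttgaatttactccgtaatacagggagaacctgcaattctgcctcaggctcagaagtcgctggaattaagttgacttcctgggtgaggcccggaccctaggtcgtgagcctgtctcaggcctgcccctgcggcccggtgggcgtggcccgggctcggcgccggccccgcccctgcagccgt
Acaa1a (chr9:119341044-119341293, plus strand): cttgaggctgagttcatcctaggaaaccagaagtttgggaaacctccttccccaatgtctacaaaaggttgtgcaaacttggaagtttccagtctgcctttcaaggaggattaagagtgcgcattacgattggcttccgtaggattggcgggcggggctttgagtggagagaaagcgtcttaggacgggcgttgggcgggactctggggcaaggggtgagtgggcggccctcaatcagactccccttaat

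RefSeq promoter windows of 300 bases, 50 of them after the start, were at hand for 29 of the 36 members. The NRF1 site occurred in 2 of these 29 windows, those of Etfdh and Hsdl2, and in 4.60% of all 32851 windows. Of windows of genes measured here, 7.21% held it. The direct repeat bound by PPARα with RXR, searched as AGGNCA repeated after a gap of 1 base, was in 0 of the 29 and in 0.381% of all windows. An ERR site, TNAAGGTCA, was likewise in 0 of the 29, against 1.28% of all. The CCAAT box was in 14 of the 29, or 48.3%, against 37.4% of all windows. It was in 10 of the 17 windows of members that rose at 120 ppm and in 2 of the 6 of members that fell. All motifs were sought on both strands. A match describes these letters only, and a missing match says nothing of the factor.

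Before the results, 3 facts of the series bear on them. First, the values of the whole array spread differently with concentration: the interquartile range over genes was 2.66 to 3.16 in the 10 air and 1 ppm arrays and 3.28 to 3.54 in the 25 arrays from 5 to 120 ppm, with no overlap. Second, most genes were called different from air from 5 ppm upward, so a call on a single member is common background here. Last, mouse 3 of the 120 ppm group stood apart from its group: Ucp1, the uncoupling protein that defines brown fat, read 11.39 against 3.75 to 4.91 in the other 4 mice, and Nppa, the atrial peptide of heart muscle, read 12.71 against 3.72 to 7.16. Values without this mouse are therefore given beside results at 120 ppm that move with it. Among all the other mice of the series Ucp1 reached 5.22 and Nppa 12.58. The lung markers were present: the mean over 8 alveolar type 2 cell genes lay between 10.99 and 11.73 across all 35 mice, and that over 8 club cell genes between 10.50 and 11.91.

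**Figure D1:**
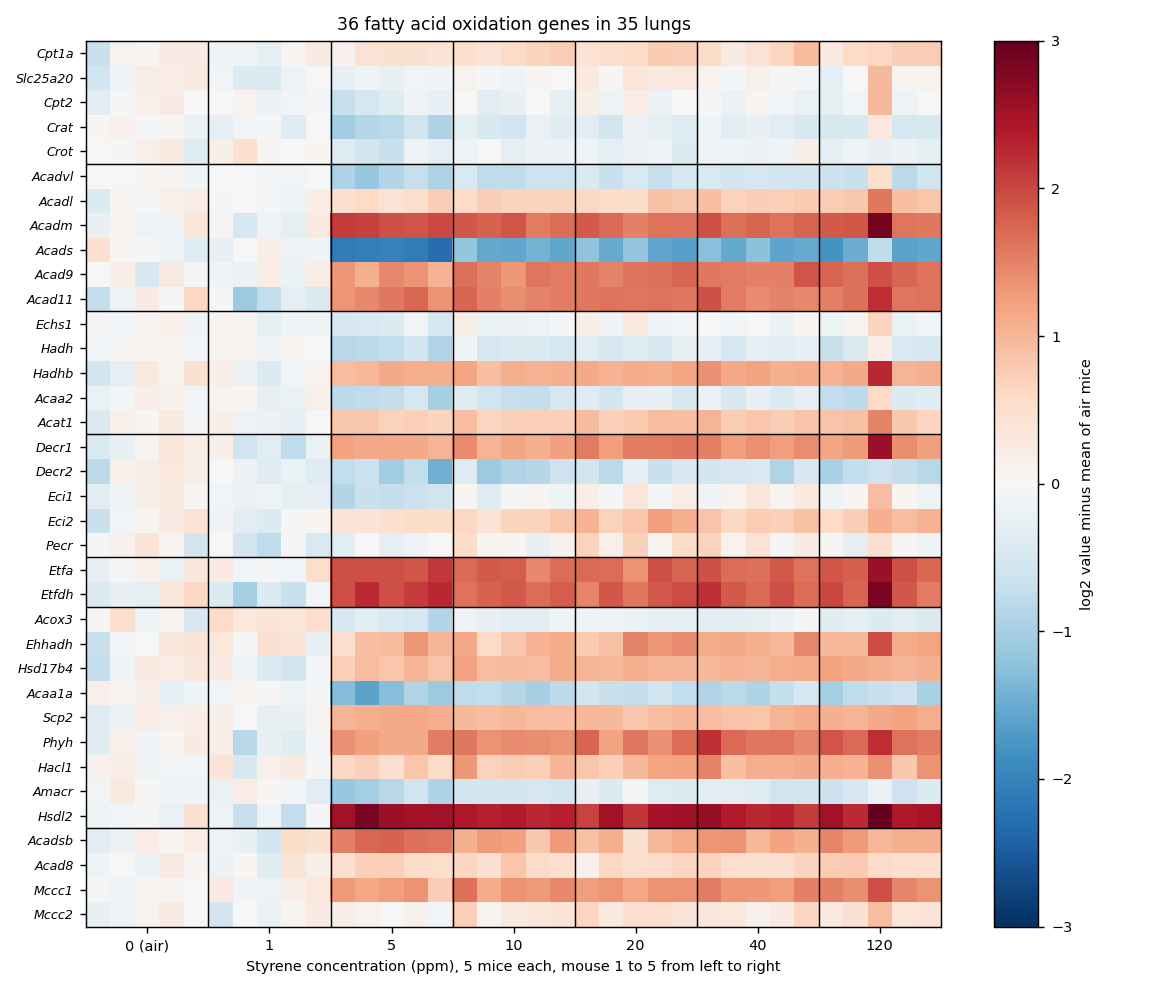
Log2 value of each of the 36 genes (rows, grouped by role) in each of the 35 mice (columns, by styrene concentration in ppm), minus the mean of the 5 air mice; red is higher and blue lower. The change of colour falls between 1 and 5 ppm, and mouse 3 at 120 ppm is redder than its neighbours in most rows.

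At 120 ppm, 29 of the 36 members differed from air, 21 higher and 8 lower. A call means limma's p was under 0.05 after Benjamini-Hochberg adjustment across the 17097 genes, and in this comparison 68.9% of all genes were called, 29.8% higher and 39.1% lower. The median change of the members was 0.75, beside -0.15 over all genes. Most members were bright probe sets. In a separate fit of the brighter genes alone, with its own p adjustment, 32 members were tested: 19 were higher, beside 46.4% of such genes, and 9 lower, beside 40.5%. That fit can call a gene that the fit of all genes did not. Without mouse 3 of the 120 ppm group, 30 members were called, 21 higher and 9 lower. With the interquartile range of each array as a covariate the count was 19, 17 higher and 2 lower. With the array axis as a covariate it was also 19, 18 higher and 1 lower. The direction of that axis is the main one of within-group variation, of which it holds 18.8%. Each array's score on it also carries differences between groups, so this covariate can take up part of the difference between concentrations. On neither covariate do the air arrays overlap those from 5 to 120 ppm, so these fits extrapolate. In whole lung, fewer cells of a type and less RNA per cell cannot be told apart. All p-values here rest on the spread from mouse to mouse.

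**Figure D2:**
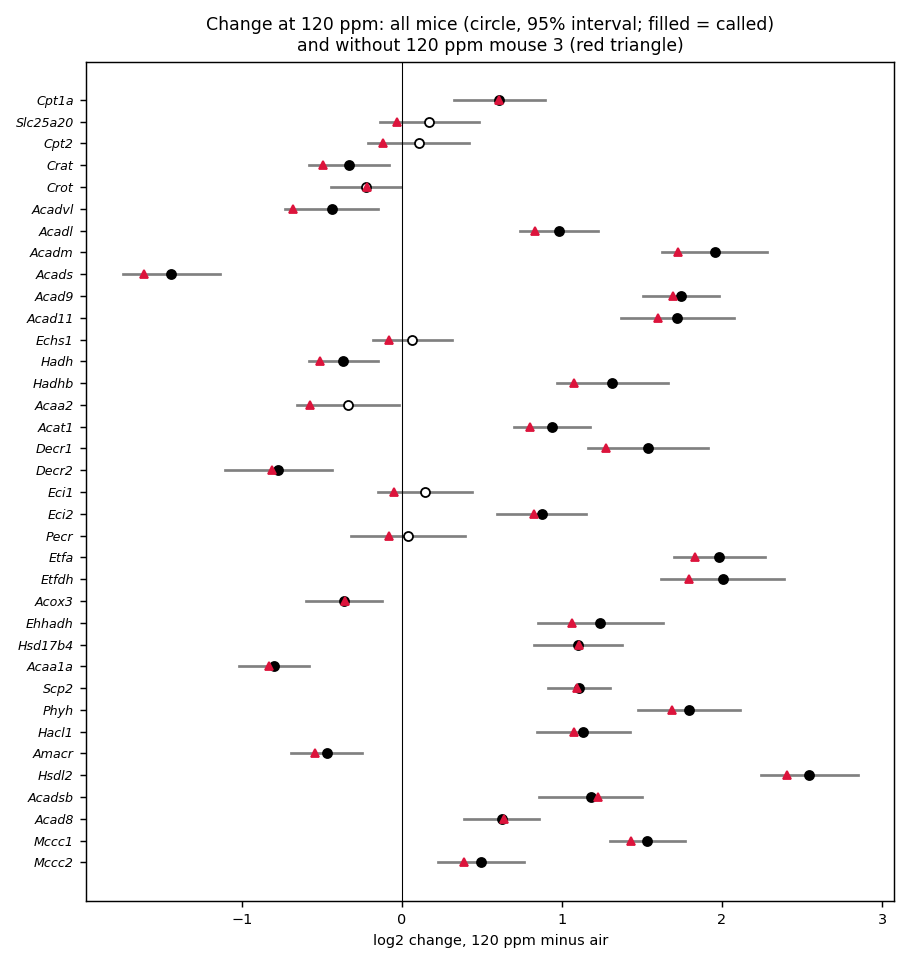
Change at 120 ppm against air for each member, on the log2 scale, from all mice (circle, with its 95% interval; filled where called by limma) and without mouse 3 (red triangle). Hsdl2 lies highest at 2.55 and Acads lowest at -1.44.

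In the carnitine shuttle, of 5 members 1 rose and 1 fell at 120 ppm, with a median change of 0.10 with all mice and -0.12 without mouse 3. Cpt1a, the outer-membrane transferase that commits long chains to mitochondria, read 8.34, 9.11, 9.09, 9.24 and 9.25 in the 5 air mice. At 120 ppm it read 9.30, 9.61, 9.63, 9.74 and 9.77. The groups did not overlap, though the highest air mouse, at 9.25, was close to the lowest exposed mouse, at 9.30, and the change was 0.61 (SE 0.14, limma adjusted p = 0.000264). Crat, which moves acetyl groups onto carnitine, was 7.44 ± 0.13 (SD, n = 5) in air and 7.11 ± 0.36 at 120 ppm, a change of -0.33 (SE 0.12, adjusted p = 0.0173) that was 0.28 with the array axis as a covariate. Its exposed mice were 6.95, 6.97, 6.91 and 6.96, all below the lowest air mouse at 7.24, except mouse 3 at 7.76, which was above every air mouse. Slc25a20, the carrier of acylcarnitines, showed 0.17 (95% interval -0.14 to 0.48), and Cpt2, the inner-membrane transferase, 0.10 (-0.21 to 0.42). Both were below 0 without mouse 3, at -0.030 and -0.12. A second, dimmer probe set of Slc25a20 was called higher, at 0.45. Crot, the peroxisomal octanoyltransferase, showed -0.23 (adjusted p = 0.0613).

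The acyl-CoA dehydrogenases listed as mitochondrial enzymes of fatty acids, which take the first step of each round, split by member. All 6 measured genes of this list were called, 4 higher and 2 lower. Acadsb and Acad8, dehydrogenases of branched-chain amino acids, are counted separately below. Acadm, the medium-chain enzyme, rose 3.88-fold at 120 ppm. It read 8.05, 8.33, 8.18, 8.18 and 8.65 in air, and 10.11, 10.14, 11.16, 9.89 and 9.87 at 120 ppm. Every exposed mouse was above every air mouse, and the change of 1.95 (SE 0.16, adjusted p = 3.06e-12) was 1.72 without mouse 3. Acads, the short-chain enzyme, went the other way. Its air mice read 8.84, 8.41, 8.31, 8.20 and 7.94, and its 120 ppm mice 6.55, 6.84, 7.59, 6.73 and 6.78, so all exposed mice were lower and mouse 3 came nearest to air. The change was -1.44 (SE 0.15, adjusted p = 3.01e-10), or 2.72-fold lower, which with the array axis as a covariate was -0.40 (adjusted p = 0.10).

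Acadvl, the very-long-chain enzyme bound to the inner membrane, read 9.53, 9.53, 9.59, 9.61 and 9.40 in air. At 120 ppm it read 8.88, 8.87, 8.72 and 8.93 in mice 1, 2, 4 and 5, all below air, and 10.05 in mouse 3, above all air mice. The group thus held 4 low mice and 1 high mouse: the change was -0.44 (SE 0.14, adjusted p = 0.00672) with all mice and -0.68 without mouse 3. It is positive, at 0.19, with the array axis as a covariate. Acad9, which also helps to assemble respiratory complex I, went from 5.12 ± 0.29 to 6.86 ± 0.12, with exposed mice from 6.76 to 7.06 and air mice 5.14, 5.33, 4.65, 5.4 and 5.08. Acad11, which acts on long and hydroxylated chains, rose by 1.72 (SE 0.17), and Acadl, the long-chain enzyme, by 0.98 (SE 0.12). A second probe set of Acadl, near the floor of the arrays at a mean of 3.29, was not called.

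**Figure D3:**
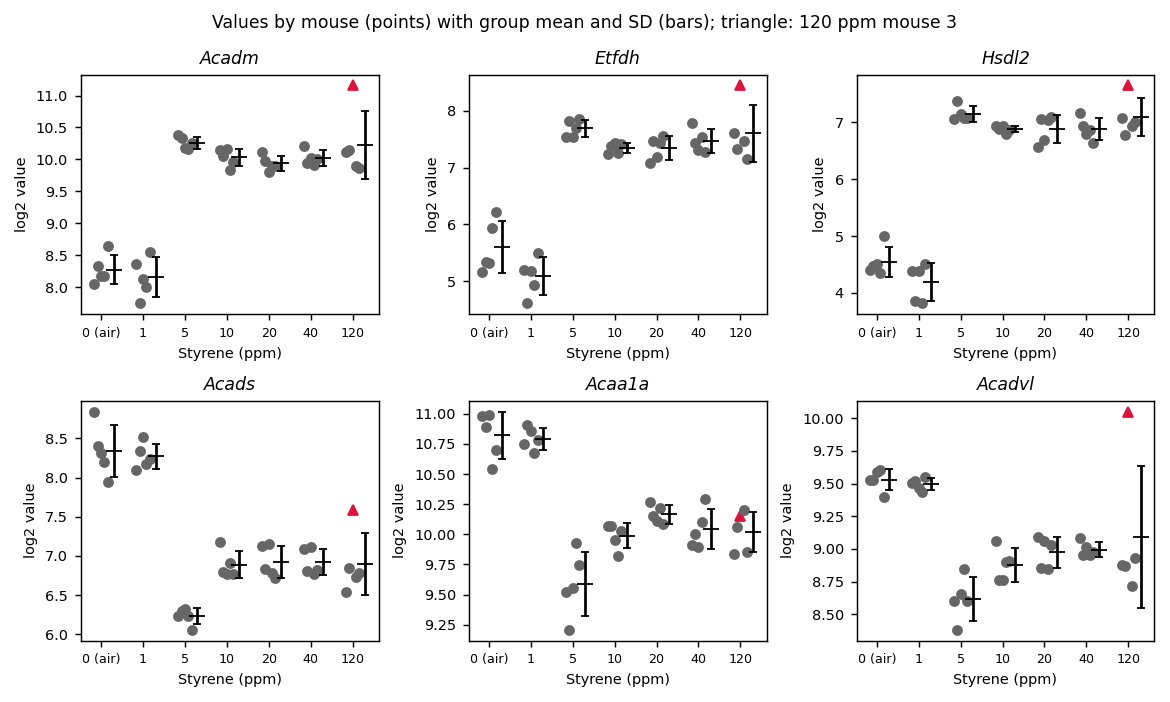
Log2 values of 6 members in every mouse (points) by styrene concentration in ppm, with the group mean and SD (bars) and mouse 3 at 120 ppm as a red triangle. Acadm, Etfdh and Hsdl2 are high, and Acads and Acaa1a low, in all 25 mice from 5 ppm upward; Acadvl is low in all of these but mouse 3.

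Hydration, the second dehydrogenation and thiolysis in mitochondria showed 2 members higher and 1 lower of 5. Hadhb, the thiolase subunit of the trifunctional protein on the inner membrane, read 7.97, 8.21, 8.80, 8.61 and 8.97 in air and 9.56, 9.64, 10.78, 9.54 and 9.61 at 120 ppm. Each exposed mouse was above the air range, and the change was 1.31 (SE 0.17, adjusted p = 3.83e-08), or 1.08 without mouse 3. Acat1, the thiolase of acetoacetyl-CoA and of isoleucine breakdown, rose by 0.94 (SE 0.12). Hadh, the matrix hydroxyacyl-CoA dehydrogenase, fell by 0.37 (SE 0.11, adjusted p = 0.00303), although its second probe set was not called, at -0.14. With the array axis as a covariate Hadh was at 0.026. The probe sets used for Hadh and Acaa2 may also hybridise with other transcripts. Echs1, the enoyl-CoA hydratase, showed 0.06 (95% interval -0.18 to 0.31), -0.084 without mouse 3 and -0.0024 with median centring. With the array axis as a covariate it was called higher, at 0.68. Acaa2, the matrix thiolase, read 9.94, 10.08, 10.32, 10.25 and 10.06 in air and 9.40, 9.35, 9.72 and 9.76 in 4 of the exposed mice, but 10.74 in mouse 3. It was not called with all mice, at -0.34 (adjusted p = 0.0560), and was called lower without mouse 3, at -0.57.

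The auxiliary enzymes that deal with double bonds showed 2 higher and 1 lower of 5. Decr1, the mitochondrial dienoyl-CoA reductase, read 7.22, 7.47, 7.80, 8.02 and 7.92 in air and 8.87, 8.96, 10.27, 9.07 and 8.92 at 120 ppm, without overlap. Its rise of 1.54 (SE 0.18, adjusted p = 7.65e-09) was 1.27 without mouse 3. Decr2, its peroxisomal counterpart, moved down: 6.61 ± 0.45 in air and 5.83 ± 0.13 at 120 ppm, a change of -0.77 (SE 0.16, adjusted p = 0.000106). Here air mouse 1, at 5.81, lay within the exposed range of 5.64 to 5.98, and the other 4 air mice lay between 6.76 and 6.91. Eci2, an isomerase of enoyl-CoA found in both organelles, rose by 0.87 (SE 0.14). Eci1, the mitochondrial isomerase, showed 0.15 (95% interval -0.15 to 0.44). Pecr, the peroxisomal enoyl-CoA reductase, showed 0.04 (-0.32 to 0.39), and was negative with quantile normalization, at -0.23, and with median centring, at -0.031.

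Both measured parts of the route from the dehydrogenases to ubiquinone rose. Etfdh, the ubiquinone oxidoreductase whose promoter holds the NRF1 site shown above, read 5.17, 5.34, 5.32, 5.93 and 6.23 in air and 7.61, 7.33, 8.45, 7.46 and 7.15 at 120 ppm. All exposed mice exceeded all air mice, and the change was 2.00 (SE 0.19, adjusted p = 5.45e-11), a 4.01-fold rise. Etfa, the α subunit of the flavoprotein itself, read 7.13, 7.31, 7.51, 7.18 and 7.71 in air and 9.23, 9.17, 9.97, 9.30 and 9.09 at 120 ppm. It too had no overlap, with a change of 1.98 (SE 0.14, adjusted p = 1.1e-13). Without mouse 3 the changes were 1.79 and 1.83.

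All 9 members of peroxisomal oxidation were called at 120 ppm, 6 higher and 3 lower, with a median change of 1.10. Hsdl2, a peroxisomal short-chain dehydrogenase with a sterol carrier domain, showed the largest change of the 36. It read 4.40, 4.46, 4.52, 4.35 and 4.99 in air and 7.07, 6.78, 7.65, 6.94 and 7.01 at 120 ppm, a 5.84-fold rise (2.55, SE 0.15, adjusted p = 3.26e-15). Phyh, which starts the α-oxidation of phytanic acid, went from 6.83 ± 0.24 to 8.62 ± 0.27 (change 1.79, SE 0.16). Hacl1, the lyase of the same route, rose by 1.13 (SE 0.14). The pair of bifunctional enzymes for hydration and dehydrogenation both rose, Ehhadh by 1.24 (SE 0.19) and Hsd17b4 by 1.10 (SE 0.13). Scp2, a thiolase for branched chains and a lipid carrier, read 9.48, 9.69, 10.11, 10.02 and 10.09 in air and 10.95, 10.90, 11.03, 11.08 and 10.96 at 120 ppm, with a gap between the groups. Its change was 1.10 (SE 0.09, adjusted p = 6.53e-12).

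Acaa1a, the peroxisomal thiolase for straight chains, was lower in every exposed mouse. Air mice read 10.98, 10.89, 10.99, 10.54 and 10.70 and 120 ppm mice 9.83, 10.06, 10.15, 10.20 and 9.85, a change of -0.80 (SE 0.11, adjusted p = 6.2e-08). Its probe set may also hybridise with transcripts of close relatives. Amacr, the racemase that prepares branched chains for oxidation, read 7.84, 8.20, 7.94, 7.79 and 7.77 in air and 7.26, 7.41, 7.72, 7.29 and 7.50 at 120 ppm. These groups also did not overlap, with the nearest mice at 7.77 and 7.72, and the change was -0.47 (SE 0.11, adjusted p = 0.000291). With the array axis as a covariate it was 0.058. Acox3, the oxidase for branched chains, fell by 0.36 (SE 0.12, adjusted p = 0.00661), with air mouse 5 at 5.56 below the whole exposed range of 5.62 to 5.77.

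The 4 measured enzymes of branched-chain amino acid oxidation all rose. Mccc1, the α subunit of methylcrotonyl-CoA carboxylase in leucine breakdown, read 6.52, 6.44, 6.65, 6.66 and 6.58 in air and 8.09, 7.97, 8.50, 8.04 and 7.91 at 120 ppm. The change was 1.53 (SE 0.12, adjusted p = 4.24e-13), with no overlap. Its partner subunit Mccc2 changed less, by 0.49 (SE 0.13), and 1 of its 3 probe sets was not called. Acadsb, the short/branched-chain dehydrogenase of isoleucine, read from a probe set that may also hybridise with other transcripts, rose by 1.18 (SE 0.16), and Acad8, the isobutyryl-CoA dehydrogenase of valine, by 0.62 (SE 0.11). The second probe set of Acad8 showed -0.05 and was not called.

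Across the concentrations, most members changed between 1 and 5 ppm rather than by degrees. Among the exceptions, Mccc2 showed 0.07 at 5 ppm and 0.36 at 10 ppm, and Eci1 -0.69 and -0.09. At 1 ppm, 1 of 36 was called, beside 2.46% of all genes, 0.965% higher and 1.49% lower: Acox3, higher by 0.44 (SE 0.12, adjusted p = 0.0381). A second, dimmer probe set of Acox3 showed -0.16 at 1 ppm and was not called. The count was 0 when any of air mice 3 and 5 or 1 ppm mice 1, 2, 4 and 5 was left out. At 5 ppm, 33 of 36 were called, 20 higher and 13 lower, beside 77.0% of all genes, 29.6% higher and 47.4% lower. With the interquartile range as a covariate the 5 ppm count was 15, and with the array axis 13. In these covariate fits the sign at 5 ppm turned in 9 member values, 7 of them from called changes: those of Cpt1a, Cpt2, Crot, Echs1 and Eci2. At 10 ppm the count was 29, 21 higher and 8 lower, beside 66.4% of genes, 29.0% higher and 37.4% lower. At 20 ppm it was 30, 22 higher and 8 lower, beside 63.6%, 29.4% higher and 34.2% lower. At 40 ppm it was 28, 21 higher and 7 lower, beside 64.8%, 28.6% higher and 36.2% lower. In the fits of the brighter genes alone, 18 of 32 members were higher and 12 lower at 5 ppm, beside 43.7% and 45.4% of such genes. At 10, 20 and 40 ppm 19 were higher each time, beside 46.2%, 46.8% and 46.5%, and 8, 8 and 7 lower, beside 40.0%, 37.5% and 38.6%. All of these comparisons share the same 5 air mice, and so do those at 120 ppm, so they are not independent of each other. For 18 of the 36 members, the 25 mice from 5 to 120 ppm did not overlap the 10 mice at air and 1 ppm, 16 of them higher, beside 29.5% of all genes, 15.1% higher and 14.4% lower. Acads and Acaa1a were the lower pair. In the air against 120 ppm comparison alone, 24 of 36 did not overlap, 21 higher and 3 lower, beside 50.7% of genes, 24.4% higher and 26.3% lower. Shares without overlap were not worked out for the brighter genes alone.

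The size of the change varied little from 5 to 120 ppm for the strongest risers. Hsdl2 was higher than air by 2.60 at 5 ppm, 2.34 at 10 ppm, 2.34 at 20 ppm, 2.33 at 40 ppm and 2.55 at 120 ppm (SE 0.15 each). Etfa was higher by 1.95, 1.69, 1.68, 1.75 and 1.98 at the same concentrations (SE 0.14). Phyh differed in pattern, with 1.29, 1.42, 1.51, 1.71 and 1.79 (SE 0.16), and Acad9 likewise with 1.24, 1.52, 1.62, 1.62 and 1.74 (SE 0.12). From 5 ppm, in Phyh the mean was higher at each concentration than at the one before, and in Acad9 the 20 and 40 ppm means were level. Acadl, a smaller riser, also climbed, with 0.56, 0.67, 0.69, 0.76 and 0.98 (SE 0.12). At 120 ppm without mouse 3, Phyh was at 1.69 and Acadl at 0.83. Over all mice, a trend on log2(ppm + 1) was called for 30 members, 23 rising and 7 falling, beside 72.6% of all genes, 30.9% rising and 41.8% falling. Without mouse 3 the split was 21 rising and 9 falling. In the fit of the brighter genes alone, with all mice, 21 of 32 members rose and 7 fell, beside 48.2% and 37.7% of such genes. With the interquartile range as a covariate the trend was called for 19. Its sign turned in 14 member values over both covariate fits, 8 of them from called trends: those of Acadvl, Hadh, Acox3, Acaa1a and Amacr. Given the step between 1 and 5 ppm, that trend describes the ends of the range and not a steady slope.

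The 5 ppm group lay below the mean of the 10, 20 and 40 ppm groups in many members. This contrast called 18 of 36, 17 lower and 1 higher, beside 42.3% of all genes, 28.8% lower and 13.5% higher. In the fit of the brighter genes alone, 14 of 32 members were lower and 1 higher, beside 47.3% and 18.6% of such genes. The share of lower members was thus near that of genes of like brightness. Eci1 differed most, at 7.92, 8.12, 8.07, 8.16 and 8.24 in the 5 ppm mice against group means of 8.71, 8.93 and 8.94 at 10, 20 and 40 ppm (-0.76, SE 0.12, adjusted p = 6.03e-06). All 5 were below the lowest of those 15 mice, at 8.42. Acads was at 6.23, 6.29, 6.32, 6.24 and 6.06, below all 15 mice of the 10 to 40 ppm groups, the lowest of which read 6.72 (-0.68, SE 0.12, adjusted p = 3.28e-05). Crat at -0.50, Acaa1a at -0.48, Amacr at -0.47, Pecr at -0.44 and Hadh at -0.41 followed. Acadsb was the exception, higher at 5 ppm by 0.57 (SE 0.13, adjusted p = 0.000523). This contrast called 1 member once the array axis was a covariate. The 5 ppm arrays had scores of -1.41 to -1.04 on that axis, and those at 10 to 40 ppm -0.79 to 0.49.

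The 120 ppm group did not differ from 10 to 40 ppm in any member by limma, where 0.0936% of all genes, 16 in number, were called, 0.0117% higher and 0.0819% lower. Without mouse 3 the member count was also 0. The 95% intervals of the difference reached from -0.53, for Pecr, to 0.53, for Etfdh, so differences inside these intervals are not excluded. With all 5 mice 28 of the 36 differences were above 0, with a median of 0.10; without mouse 3 there were 16, with a median of -0.02.

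Mouse 3 at 120 ppm was the highest of its 5 in 28 of 36 members, beside 25.3% of all genes, and the highest of all 35 mice in 22, beside 2.42%. In all 6 acyl-CoA dehydrogenases of the fatty acid list, all 5 enzymes from hydration to thiolysis, all 5 double bond enzymes and both electron carriers this mouse was highest of 5. It was highest in 3 of 5 members of the carnitine shuttle, 5 of 9 of peroxisomal oxidation and 2 of 4 of branched-chain amino acid oxidation. Differences between roles were not tested. Decr1, at 10.27, was 1.31 above the mean of the other 4 mice; Acadvl was 1.20 above, Hadhb 1.19, Acaa2 1.18 and Acadm 1.16. The peroxisomal genes Hsd17b4 (-0.03), Scp2 (0.05) and Acox3 (-0.05) hardly differed from the other 4 mice, and neither did Cpt1a (0.03) of the carnitine shuttle. Other peroxisomal genes were higher: Ehhadh (0.89), Hsdl2 (0.70) and Phyh (0.52) were highest of all 35 mice. Of the branched-chain members, Acadsb was lower (-0.23).

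In the same mouse all 8 heart muscle markers and all 5 brown fat markers were highest of 5, with median differences of 3.59 and 4.06. The mean of the heart list ranged from 6.60 to 8.96 in air and from 4.76 to 10.15 at 120 ppm, and that of the brown fat list from 5.44 to 6.43 and from 4.65 to 9.58. At 40 ppm these means ranged from 6.17 to 9.96 and from 4.98 to 6.57. Nppa reached 12.58 and Myl7 11.96 in mice other than mouse 3, against 12.71 and 12.22 in it. High heart muscle signal was thus not particular to mouse 3, and no mouse of another group was examined in the same way. Cpt1b, the muscle and brown fat form of the outer carnitine transferase, read 8.25 in mouse 3 against 5.18 to 5.35 in the other 4 mice. Pdk4, a kinase that spares pyruvate when fat is burned, read 8.54 against 5.02 to 5.54. All 17 citrate cycle genes were highest of 5 in this mouse. None of the markers of alveolar type 2 cells (8), club cells (8), ciliated cells (9), alveolar macrophages (8) or endothelium (9) was. The part of these cells' RNA in the members' values was not tested beyond leaving the mouse out.

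**Figure D4:**
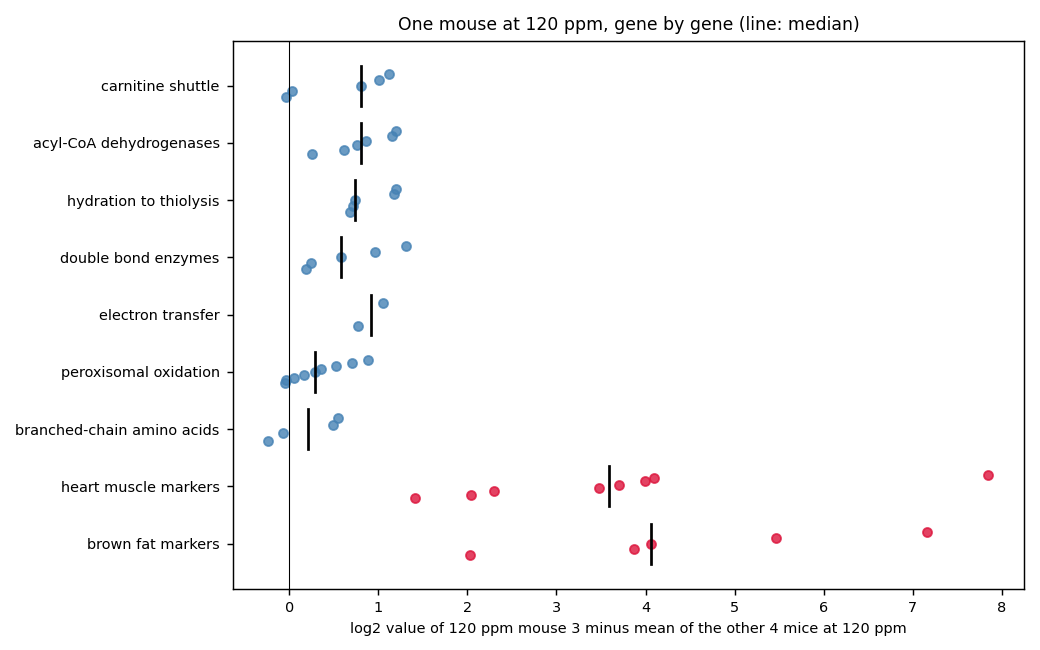
Log2 value of mouse 3 at 120 ppm minus the mean of the other 4 mice at 120 ppm, for each member by role (blue) and for heart muscle and brown fat markers (red); the line is the median of each row. The acyl-CoA dehydrogenase, hydration to thiolysis and electron transfer rows lie mostly above 0.5. The peroxisomal oxidation row spreads from -0.05 to 0.89, the branched-chain row from -0.23 to 0.54, and the markers reach 7.85. The carnitine shuttle and double bond rows hold genes of both organelles.

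Members that rose lay in longer genes than members that fell. The 21 that rose spanned 19.7 to 101 kb on the genome, with a median of 33.7 kb, and the 8 that fell 5.25 to 38.7 kb, with a median of 12.1 kb. Acadvl, Acads, Decr2 and Acaa1a, all lower at 120 ppm, were the shortest of the 36. Across the 36 members Spearman's rho between span and the change at 120 ppm was 0.46, and over the 17055 genes with a span it was 0.31. This is given as a description across genes, which share arrays and are not independent. The GC content of the promoter windows was the same in both directions, with a median of 60.3%.

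**Figure D5:**
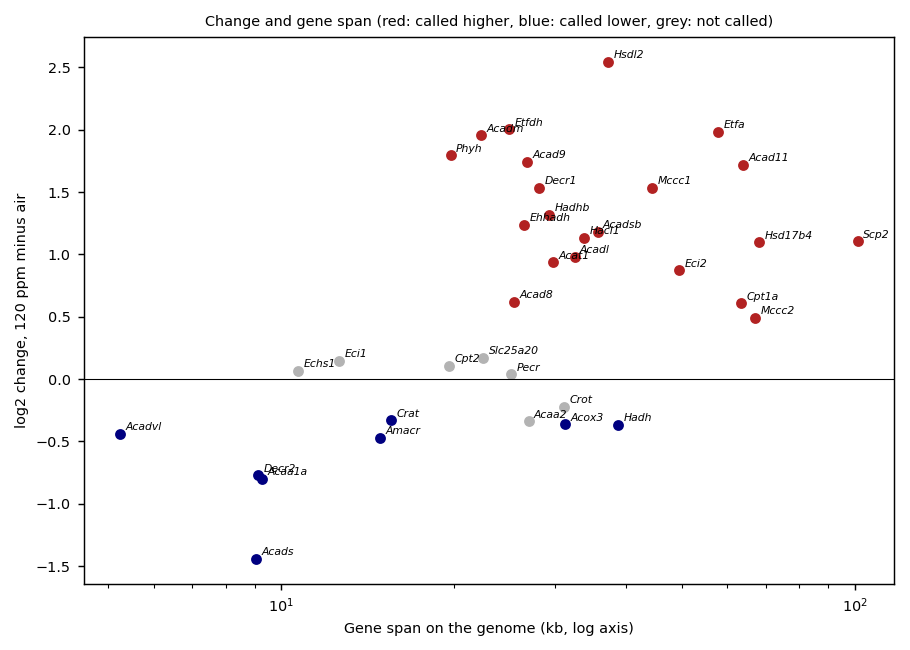
Change at 120 ppm against air (log2) and span of the gene on the genome (kb, log axis) for the 36 members, red where called higher, blue where called lower and grey where not called. Of the members under 20 kb only Phyh, at 19.7 kb and 1.79, was called higher.

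Genes around the pathway were called in both directions as well. Their counts, and those of the cell type markers, stand beside 29.8% of all genes higher and 39.1% lower at 120 ppm, and a share near these is no result about a list. Of 18 genes for uptake and activation of fatty acids, 9 rose and 7 fell at 120 ppm. Cd36, the scavenger receptor that takes up fatty acids, rose by 1.53 (SE 0.16), and the acyl-CoA synthetases Acsl3 and Acsl5 by 2.00 (SE 0.16) and 1.67 (SE 0.15), while the transporter Slc27a4 changed by -1.56 (SE 0.11). Without mouse 3 the split was 6 higher and 7 lower. Of 17 further oxidation enzymes, 6 rose and 9 fell, or 6 and 10 without mouse 3. Abcd3, a transporter of acyl-CoA into peroxisomes, rose by 1.83 (SE 0.16) and Cat, the catalase that removes their hydrogen peroxide, by 0.95 (SE 0.12). Mlycd, which destroys the malonyl-CoA that blocks the shuttle, changed by -1.29 (SE 0.12), the peroxisomal thioesterase Acot8 by -1.42 (SE 0.13), and Cpt1c, the brain form of the transferase, by -1.32 (SE 0.15). Cpt1b showed -0.29 (SE 0.36, adjusted p = 0.468) with all mice and -0.90 (adjusted p = 0.000408) without mouse 3.

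Of 19 genes of the PPAR and PGC1 list, 6 were higher and 6 lower, 31.6% each, near the shares over all genes. Ppara, the nuclear receptor that drives these enzymes in liver, was 4.61 ± 0.09 in air and 4.66 ± 0.48 at 120 ppm (change 0.05, SE 0.16, adjusted p = 0.790). Without mouse 3, which read 5.44, Ppara showed -0.14. Its target Pdk4 showed 0.62 (SE 0.47, adjusted p = 0.244), and -0.03 without mouse 3. Vnn1, a pantetheinase and PPARα target, rose by 2.12 (SE 0.18), and Tfam, which packages mitochondrial DNA, by 1.10 (SE 0.10). The nuclear receptors Esrra and Rxra changed by -1.40 (SE 0.13) and -1.15 (SE 0.11). Ppargc1a had no probe set of its own symbol alone and was not analysed here.

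Peroxisome assembly showed 4 of 16 genes higher and 8 lower, or 4 and 9 without mouse 3. The membrane proteins Pex2 and Pex13 rose by 1.84 (SE 0.11) and 1.87 (SE 0.13). In the other direction, Pex16 and Pex19, which place proteins in the peroxisomal membrane, changed by -1.88 (SE 0.16) and -1.34 (SE 0.14), Pex6, an ATPase of receptor recycling, by -1.43 (SE 0.12), and Pex14, the docking protein, by -1.35 (SE 0.11). Ether lipid synthesis had 3 of 4 higher and 1 lower, with Far1, the fatty acyl-CoA reductase, at 1.73 (SE 0.28), and without mouse 3 it had 2 higher and 1 lower.

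Downstream, 9 of 17 citrate cycle genes were higher and 3 lower, among them Idh3a, a subunit of isocitrate dehydrogenase, at 2.19 (SE 0.15), Sdha, the flavoprotein of succinate dehydrogenase, at 1.81 (SE 0.13) and Fh1, fumarase, at 1.80 (SE 0.14). Without mouse 3 the split was 8 higher and 5 lower. Of 16 further branched-chain amino acid and propionate enzymes, 10 rose and 5 fell, or 9 and 6 without mouse 3, with Dbt, a branched-chain dehydrogenase subunit, at 2.34 (SE 0.21), Mmut, the mutase of propionate breakdown, at 1.92 (SE 0.17) and Pcca, a propionyl-CoA carboxylase subunit, at 1.59 (SE 0.10). Of 5 ketone and acetate genes, 3 rose and 1 fell, led by Oxct1, which activates acetoacetate, at 2.42 (SE 0.18). Fatty acid synthesis, the opposing pathway, had 8 of 14 higher and 4 lower, with Scd1, a desaturase, at 1.06 (SE 0.14), Acly, which makes cytosolic acetyl-CoA, at 0.97 (SE 0.13) and Tecr, an enoyl reductase of elongation, at -1.0 (SE 0.10).

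Some markers of lung cell types also differed between air and 120 ppm, and their part in the members' values was not tested. Of 9 ciliated cell markers, 7 rose and 2 fell at 120 ppm, and the mean of the list went from 5.86 to 6.27 in air to 6.71 to 7.19. Among 8 markers of alveolar macrophages 5 rose and 1 fell, with list means of 8.20 to 9.11 in air and 9.45 to 9.90 at 120 ppm. Of 8 alveolar type 2 markers, 1 rose and 2 fell, and the means were 11.25 to 11.73 and 11.23 to 11.45. Of 8 club cell markers, 3 rose and 0 fell, and of 9 endothelial markers, 4 rose and 4 fell. The macrophage and endothelial lists share the gene Car4.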

How the data were processed

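Whole lung RNA from 35 mice, 5 in each of 7 groups, was hybridised to Affymetrix arrays after 3′ labelling, per the labels' protocols. The authors deposited log2 intensities, 1 per probe set; RMA and Partek are named in the submitters' processing notes, with no version or role, and the array's build is not given in the sources used here. Of 45037 probe sets, 28898 had exactly 1 gene symbol in the platform annotation, 551 several and 15588 none. Entrez identifiers matched 28689 probe sets to the reference gene table, which updated 0 symbols. The brightest single-symbol probe set stood for each of 17097 genes.

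Group means for all 7 groups were fitted with limma 3.58.1 (lmFit, eBayes) in R 4.3.3, with no filter on dim genes, and a gene was called where the p adjusted across every gene (Benjamini-Hochberg) was below 0.05. Contrasts were each concentration against air, 5 ppm and 120 ppm against the mean of 10, 20 and 40 ppm, and a slope on log2(ppm + 1). The procedure was tested on simulated data with independent noise and a small number of changed genes in the 120 ppm group alone. Those data lacked the shift in array spread and the many called genes seen here, so the test does not bear on them. Arrays have no read depth, and their number limits the precision. Alternatives were averaging the probe sets of each gene, normalizing by quantiles, median centring, dim genes left out, smaller fits, the 1 ppm group as control, a replicate block, array-wide covariates and leaving out each mouse. The members and lists were chosen with earlier results of these data known. All members are named, with up to 4 genes of each other list by smallest adjusted p at 120 ppm, and Cpt1b, Ppara, Pdk4, Ppargc1a, Cat, Pex16 and Pex19 whatever they did; some items are not reported here. Marker genes named beside mouse 3 were chosen after its values were seen. Lists: uptake and activation, further oxidation enzymes, PPAR and PGC1, peroxisome assembly, ether lipids, branched-chain amino acids and propionate, ketone use, fatty acid synthesis, citrate cycle, and markers of heart muscle, brown and white fat, alveolar type 2, club and ciliated cells, macrophages and endothelium. Promoter sequences and gene spans are RefSeq's on GRCm38.p6, and for some members the 2 differ in the start used. Of 57 single-symbol probe sets of the members, those of 5 genes disagreed on the call at 120 ppm.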

Additional observations from a re-analysis of the deposited data

Results flagged for a closer look

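Among 301 groups of 5 mice examined, 39 had a mouse set apart from the other 4 by more than 0.71 of the group's range, Dixon's limit, where chance gives about 1 in 20. These groups cover the 36 members and a few marker and list genes, some of them chosen after the values of mouse 3 at 120 ppm were seen. The members alone gave 29 of the 39, with 15 in that mouse. Over 36 members in 7 groups, their flags outside it came at a rate near the 1 in 20 of chance. With the other genes that mouse accounts for 19, all of them high: Cpt2 at 9.31, Crat at 7.76, Acadvl at 10.05, Acadl at 10.65, Acadm at 11.16, Acads at 7.59, Acad11 at 8.45, Hadh at 11.68, Hadhb at 10.78, Acat1 at 9.89, Decr1 at 10.27, Eci1 at 9.72, Etfa at 9.97, Ehhadh at 6.35, Mccc2 at 7.63, Ucp1 at 11.39, Cidea at 9.91, Cpt1b at 8.25 and Pdk4 at 8.54.

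Other members stood apart in single mice. In air these were Cpt1a at 8.34 and Decr2 at 5.81, both low in mouse 1, and Hsdl2 at 4.99, high in mouse 5. At 5 ppm they were Cpt1a at 9.13, low in mouse 1, Echs1 at 9.65, high in mouse 4, Etfa at 9.48, high in mouse 5, and Hsdl2 at 7.39, high in mouse 2. At 10 ppm Acat1 was high in mouse 1, at 9.33. At 20 ppm Slc25a20 at 9.06 and Decr1 at 8.95 were low in mouse 2, and Acad8 at 5.80 in mouse 1. At 40 ppm Crot at 4.58 and Acad9 at 7.02 were high in mouse 5, and Decr2 at 5.71 was low in mouse 4.

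The same held for marker and list genes elsewhere: Ucp1 at 4.95 and Nppa at 7.29 in mouse 4 and Pdk4 at 6.69 in mouse 3 at 10 ppm, Ucp1 at 5.22 in mouse 1 at 40 ppm, Cidea at 5.08 in mouse 1 at 20 ppm, all high, and Myl7 at 8.17 in mouse 3 at 5 ppm, low.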

How the results depend on the processing

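The counts of called members kept within 1.5 times of their reported values under the mean of probe sets, quantile normalization, median centring, dim genes left out, smaller fits and the 1 ppm group as control, except at 1 ppm, where the count of 1 became 0 with probe sets averaged, dim genes left out, only the compared groups fitted or the interquartile range as a covariate. With the interquartile range as a covariate the counts were 15 at 5 ppm, 15 at 10 ppm, 19 at 20 ppm, 16 at 40 ppm, 19 at 120 ppm and 19 for the trend. With the array axis they were 13 at 5 ppm, 18 at 10 ppm, 19 at 120 ppm and 1 for 5 ppm against 10 to 40 ppm. Leaving out 1 mouse at a time gave 0 to 2 at 1 ppm, 32 to 33 at 5 ppm, 28 to 31 at 10 ppm, 28 to 31 at 20 ppm, 26 to 29 at 40 ppm, 28 to 30 at 120 ppm, 14 to 18 for 5 ppm against 10 to 40 ppm, 0 to 0 for 120 ppm against 10 to 40 ppm and 26 to 31 for the trend. The labels do not say that replicate numbers pair the mice, and not every pair correlated (mean 0.049 over 105 same-number pairs, 46 above 0.1, against -0.012 for other pairs); 16 of 35 arrays were closest to their own number, a hint from the data and not the design; the replicate block gave 29 at 120 ppm, 33 at 5 ppm and 19 for 5 ppm against 10 to 40 ppm.

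At 120 ppm the sign turned with the array axis for Crat (0.28), Acadvl (0.19), Hadh (0.026) and Amacr (0.058), which were called, and for Crot (0.046) and Acaa2 (0.055), which were not. It turned with the interquartile range for Slc25a20 (-0.047) and Crot (0.26), with median centring for Echs1 (-0.0024) and Pecr (-0.031), and with quantile normalization for Pecr (-0.23). Leaving out 1 mouse turned it in 5 uncalled members, with ranges of -0.030 to 0.289 for Slc25a20, -0.120 to 0.198 for Cpt2, -0.084 to 0.128 for Echs1, -0.048 to 0.223 for Eci1 and -0.10 to 0.133 for Pecr; mouse 3 at 120 ppm did so in each of the 5 (Pecr -0.080), and air mouse 5 in Pecr (-0.10). The cause was not tested. Median centring moved the median of all genes at 5 ppm from -0.23 to -0.33. Dim genes leave little signal over background, and the number of mice limits small differences.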

Other observations

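Air mouse 1 was the lowest of the 5 air mice in 21 of the 36 members, against 27.5% of all genes, and this was not confined to the 2 members in which it stood apart by Dixon's limit. Decr2 at 5.81 and Cpt1a at 8.34 were the clearest. In the white fat list, all 5 markers were highest of 5 in mouse 3 at 120 ppm and 0 of them highest of all 35, unlike the brown fat list, where all 5 were highest of 35. The white fat list had 0 members higher and 1 lower at 120 ppm against air, and the heart muscle and brown fat lists 0 in either direction; without mouse 3 the heart list had 3 of 8 lower and the brown fat list 2 of 5.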
